A study of Mus musculus with 6 samples.

Results

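The nuclear genes of the respiratory chain were examined in the RNA of sEV, the small extracellular vesicles that cells release, here of primary mouse cortical neurons. Members were the protein-coding genes of GENCODE M21 whose symbol starts with Nduf, Uqcr, Cox4i, Cox5, Cox6, Cox7, Cox8 or Atp5, together with Sdha, Sdhb, Sdhc and Sdhd. The annotation holds 94 such gene models, and 93 of them were matched by Ensembl identifier among the 53379 identifiers of the files, of which 21865 are protein-coding. They fall into 46 genes of complex I, 4 of complex II, 8 of complex III, 18 of complex IV and 17 of complex V. The symbol prefix of complex I also takes in 8 assembly factors (Ndufaf genes), which help to build the complex and are no part of it. All 6 libraries came from wild-type (WT) embryonic cortical neurons. The treatment was control for 3 libraries and OGD/R for the other 3. The series text speaks of vesicles of normoxic and hypoxic neurons, and the OGD/R libraries were taken to be the hypoxic ones, since the remaining treatment is named control. The labels give no age, no duration of the treatment and nothing on whether replicates were separate cultures, so that a p-value here sets a difference against the spread of these 6 libraries alone, and that spread may be technical.

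The respiratory chain sits in the inner mitochondrial membrane. Complexes I and II take electrons from NADH and succinate, complex III passes them to cytochrome c, complex IV hands them to oxygen, and complex V, the ATP synthase, uses the resulting proton gradient to make ATP. Most subunits are encoded in the nucleus and imported as proteins, while a small core of complexes I, III, IV and V is encoded by mitochondrial DNA. Neurons depend heavily on this pathway, and several subunits of complex IV have paired forms, one found widely and one known mainly from heart, skeletal muscle, lung or testis.

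Depth on genes was low. The files hold FPKM (fragments counted on a gene per kilobase of its length, relative to the library's total), and the fragments read back from these values numbered 1092724, 1413374 and 1494499 for the control libraries and 2141611, 1445674 and 1320916 for the OGD/R libraries. The median member had 12, 15 and 18 reads in the control libraries and 18.5, 19.5 and 11 reads in the OGD/R libraries, among the 84 members whose values came out as whole reads. One gene model, Gm23935, took 4.31, 0.554 and 0.297% of the fragments in the control libraries and 49.5, 1.95 and 24.4% in the OGD/R libraries, and FPKM of all other genes is scaled down where it is abundant. The median log2(FPKM + 1) difference between OGD/R and control over all 44125 tested genes was -0.44, and the members are described relative to it. Markers of neurons fixed as a list were above 0 in all libraries for 10 of 10 genes. Their median was 9.0 ± 1.7 FPKM in control and 8.4 ± 2.4 FPKM in OGD/R (SD, n = 3), beside 13.6 ± 2.0 and 12.2 ± 5.6 FPKM for 5 astrocyte markers. Endothelial markers also had higher medians (15.4 and 10.1 FPKM), while those of microglia (8.8 and 7.0 FPKM) and oligodendrocytes (6.0 and 5.0 FPKM) had lower ones. The 4 endothelial markers were uneven: Cldn5 was at 0 to 2.94 FPKM, and Pecam1, Cdh5 and Flt1 were at 5.73 FPKM or more. All 13 genes of a heart and skeletal muscle list were likewise above 0 in all libraries. Their median was 10.7 ± 1.9 FPKM in control and 7.2 ± 2.4 FPKM in OGD/R, so values above 0 are not particular to neuron markers.

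Values of the respiratory chain genes lay near those of protein-coding genes in general. Whether the reads came from the members' own transcripts or from the opposite strand was not tested. The median member stood at 7.7, 8.9 and 9.2 FPKM in control libraries 1, 2 and 3, and at 5.8, 10.2 and 7.1 FPKM in OGD/R libraries 1, 2 and 3. All protein-coding genes had medians of 6.7, 7.2 and 8.2 FPKM in control and 3.5, 8.2 and 5.1 FPKM in OGD/R. Members were above this median in 6 of 6 libraries. Olfactory receptor genes, a family known from the nose and used here as a low reference, had medians of 2.4, 2.5 and 2.8 FPKM in control and 0.9, 2.7 and 1.6 FPKM in OGD/R over 1134 genes. Other genes known from outside the brain stood closer to the members. Averaged over libraries, the median of 13 heart and skeletal muscle genes was 10.7 FPKM in control and 7.2 FPKM in OGD/R. That of 8 male germ cell genes was 6.5 and 4.2 FPKM, beside 8.6 and 7.7 FPKM for the members. Complex I had a median of 7.1, 7.5 and 8.6 FPKM in control and 5.3, 9.5 and 7.2 FPKM in OGD/R. Complex II, with 4 genes, had 18.2, 11.3 and 24.4 FPKM in control and 8.6, 18.0 and 8.0 FPKM in OGD/R. This was the highest median of the 5 complexes in every library except OGD/R library 3. Complex III had 8.2, 6.6 and 7.3 FPKM against 4.1, 10.005 and 7.0 FPKM. For complex IV the medians were 7.3, 7.2 and 7.1 FPKM against 5.0, 10.8 and 6.1 FPKM, and for complex V they were 8.3, 10.6 and 12.03 FPKM against 6.7, 11.2 and 8.7 FPKM. The groups overlapped in each complex. Within a bulk vesicle library, fewer vesicles with a transcript and fewer copies per vesicle cannot be told apart.

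**Figure D1:**
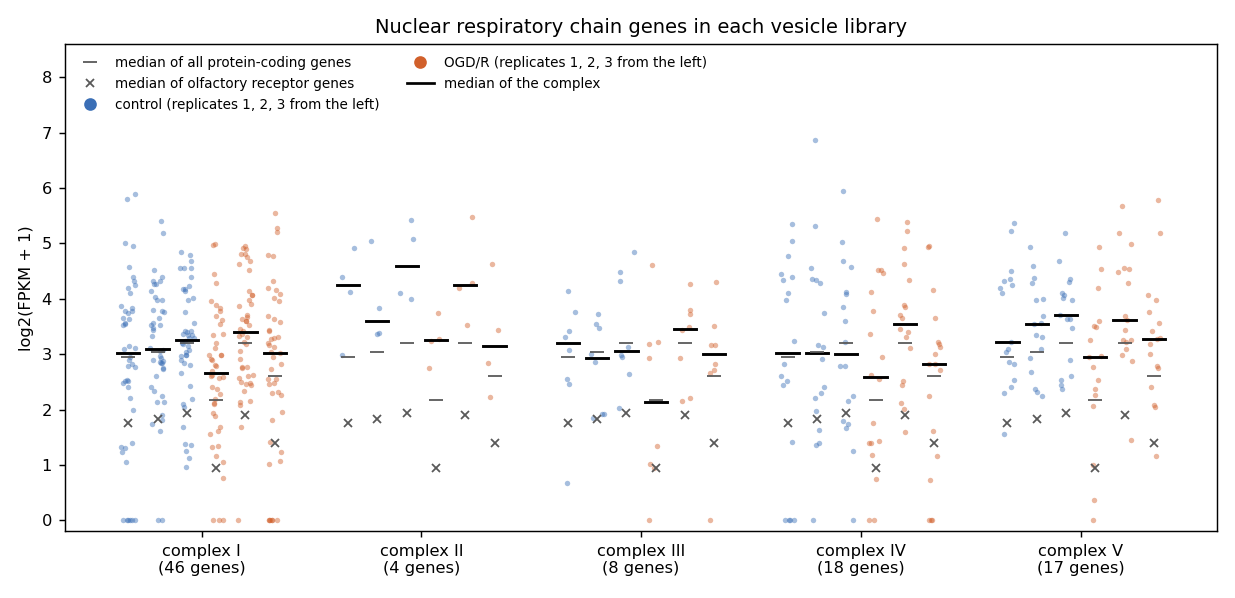
Level of each nuclear respiratory chain gene, as log2(FPKM + 1), in 3 control libraries (blue) and 3 OGD/R libraries (orange), by complex; black lines are medians of the complex, grey dashes medians of all protein-coding genes and grey crosses medians of olfactory receptor genes. OGD/R library 1 has the lowest median in complexes I, III, IV and V, with 5.3, 4.1, 5.0 and 6.7 FPKM.

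No member passed the test between OGD/R and control. Of 93 members, 92 had a mean of at least 1 FPKM and were tested with limma on log2(FPKM + 1), and 0 of them had a Benjamini-Hochberg adjusted p under 0.05, where 7 of all 44125 tested genes (0.0159%) and 0 of 20356 tested protein-coding genes did. At an unadjusted p under 0.05 the same limma test gave 1 member with a higher value in OGD/R (0.635% of all tested genes, 0.162% of coding genes) and 3 with a lower value (6.13% of all tested genes, 4.25% of coding genes). The member left out, Ndufa1, a small membrane subunit of complex I, was listed at 1.597 FPKM in control library 3, which is 1 read, and at 0 in the other 5 libraries, where a count of 0 allows up to 3.34 to 6.55 FPKM. With limma-voom on the recovered reads, 0 of 83 members passed, where 235 of 42345 genes (0.555%) did. Without OGD/R library 2, limma gave 16 members an unadjusted p under 0.05 with a lower value, where 15% of all tested genes were, and 1 with a higher value, where 0.615% were.

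As a group the members lay lower in OGD/R before scaling and higher than the other genes once the shift of all genes was set aside. Of 92 tested members, 34 had a positive and 58 a negative log2 fold change, a positive share of 37.0% where 25.1% of all tested genes and 19.5% of coding genes were positive. Their median was -0.17, against -0.44 for all tested genes and -0.42 for coding genes. Above the median of all tested genes lay 58 members, or 63.0%, where the shares were 50% of all tested genes by construction and 51.6% of coding genes. With each library centred on its own median, 58 members were positive and 34 negative, so that the direction of the members' median turned from -0.17 to 0.28. In that scaling limma gave 5 members an unadjusted p under 0.05 with a higher value and 0 with a lower one, where 2.55 and 3.16% of all tested genes were, and 0 passed after adjustment. The values of the 2 groups did not overlap for 3 members higher in OGD/R (Cox7a1, Ndufa2 and Atp5g2; 1.1% of all tested genes and 0.806% of coding genes) and for 6 members lower in OGD/R (Cox6a1, Ndufa4, Ndufb8, Ndufv1, Atp5d and Atp5l; 10.8% of all tested genes and 12.9% of coding genes).

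**Figure D2:**
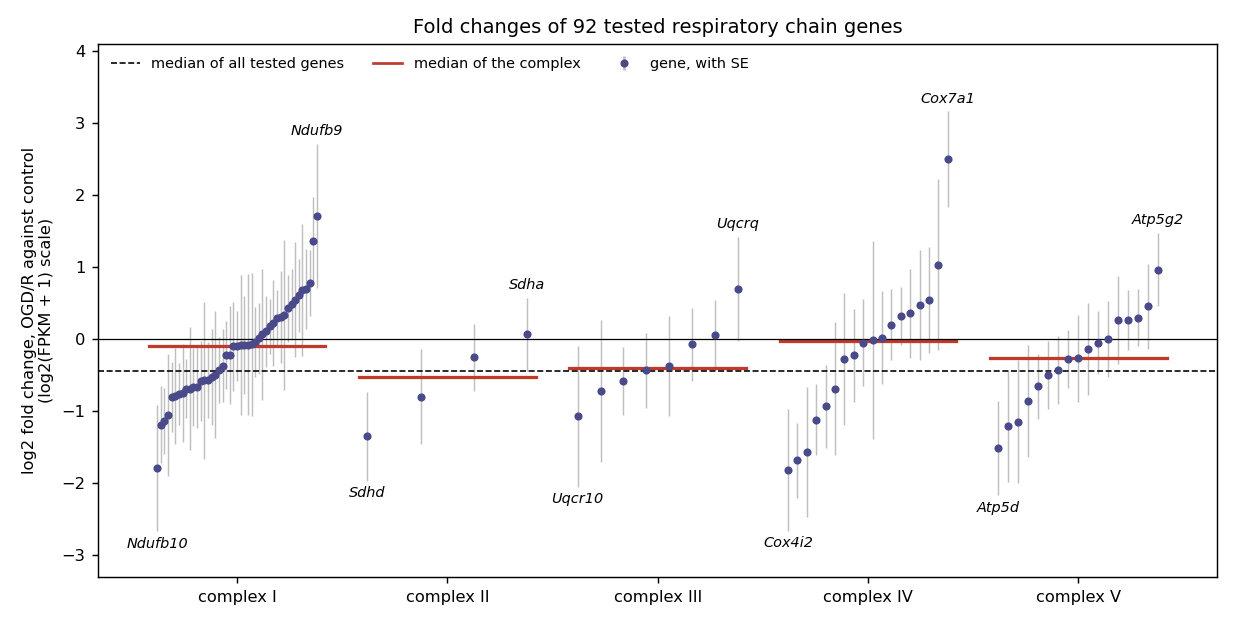
Log2 fold change of OGD/R against control with its SE for 92 tested members, sorted within each complex, with the median of the complex (red) and of all tested genes (dashed, -0.44). The medians of complexes I, III, IV and V are -0.09, -0.40, -0.03 and -0.26, above the dashed line, and that of complex II is -0.52, below it; with centred libraries the median of all 92 turns from -0.17 to 0.28.

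In complex I, 17 of 45 tested genes had higher and 28 lower values in OGD/R, with a median log2 fold change of -0.09, which is 0.35 above all genes. With centred libraries 28 were higher and 17 lower, and the median turned to 0.36. The 7 flavoprotein and iron-sulfur core subunits, which carry electrons from NADH towards ubiquinone, were 3 higher and 4 lower, with a median of -0.10 that turned to 0.35 with centred libraries. Ndufv1, the subunit that binds FMN and takes up NADH, was at 12.7, 15.3 and 20.1 FPKM in control and 7.59, 9.99 and 10.9 FPKM in OGD/R. All its OGD/R libraries lay below the control libraries, and its log2 fold change was -0.69 ± 0.41 (SE; adjusted p = 0.751 by limma), or -0.25 relative to all genes. Ndufs8, an iron-sulfur subunit, was at 16.2, 18.4 and 9.73 FPKM in control and 3.88, 11.5 and 3.93 FPKM in OGD/R, where OGD/R library 2 lay within the control range. Its log2 fold change was -1.19 ± 0.54 (limma adjusted p = 0.720). Ndufs7, which holds the last iron-sulfur cluster before ubiquinone, was at 29.8, 10.1 and 22.5 FPKM in control and 30.4, 21.8 and 26.2 FPKM in OGD/R, so that the groups overlapped. Ndufs1, the largest core subunit, varied less, from 17.1 to 21.8 FPKM in control and from 17.4 to 28.9 FPKM in OGD/R. Ndufv2 ranged from 2.97 to 15.2 FPKM and Ndufs3 from 2.90 to 22.4 FPKM over the 6 libraries.

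The supernumerary subunits of complex I, which surround the core and stabilise it, were 12 higher and 18 lower among 30 tested, or 19 higher with centred libraries. Ndufa4, first assigned to complex I and since found in complex IV, was at 55.0, 20.1 and 26.6 FPKM in control and 13.3, 11.8 and 15.98 FPKM in OGD/R. Each OGD/R library lay below each control library, with a log2 fold change of -1.13 ± 0.46 (limma adjusted p = 0.720) and -0.69 relative to all genes. Ndufa4 has 2 near-identical copies in the annotation, so reads could be shared with them. Ndufa2, a small subunit of the matrix arm, was at 4.8, 6.18 and 1.17 FPKM in control and 6.53, 12.1 and 14.6 FPKM in OGD/R. The groups did not overlap, although OGD/R library 1 and control library 2 lay close together, and the log2 fold change was 1.36 ± 0.61 (limma adjusted p = 0.720). Ndufb8, a subunit of the membrane arm, was at 11.5, 12.6 and 8.43 FPKM in control and 5.01, 5.81 and 7.07 FPKM in OGD/R, with a log2 fold change of -0.76 ± 0.43 (limma adjusted p = 0.748). It shares exon sequence on the same strand with another gene model. Ndufa5 was at 13.6, 10.5 and 6.88 FPKM in control and 12.8, 16.6 and 26.8 FPKM in OGD/R, with overlapping groups. Ndufa10 was among the most abundant members of complex I, at 58.4, 41.3 and 22.5 FPKM in control and 18.5, 29.1 and 46.1 FPKM in OGD/R. Its values spread widely in both groups, and its log2 fold change of -0.37 turned to 0.08 with centred libraries. Ndufb9 was listed at 0, 0 and 0.95 FPKM in control and 10.6, 4.91 and 0 FPKM in OGD/R, so the groups overlapped. Its counts of 0 allow up to 3.02 to 3.9 FPKM, and its exons overlap Gm49356 on the same strand. The 8 assembly factors were 2 higher and 6 lower, with a median of -0.25 that turned to 0.20 with centred libraries. Ndufaf5, an enzyme that modifies the core subunit Ndufs7, was the most abundant of them at 31.3, 18.3 and 27.9 FPKM in control and 30.7, 25.9 and 37.9 FPKM in OGD/R.

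**Figure D3:**
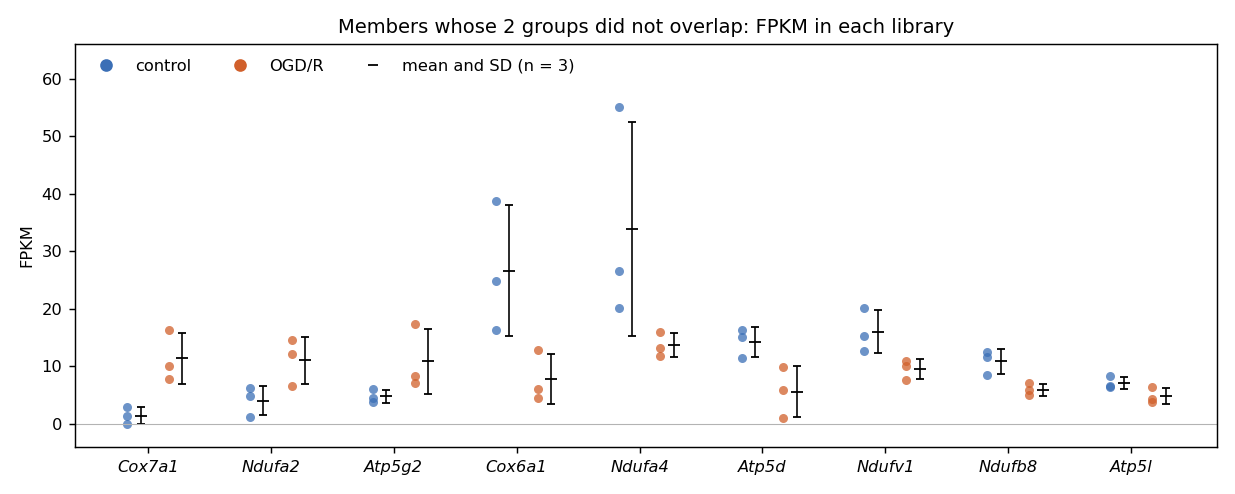
FPKM in each control (blue) and OGD/R (orange) library of the 9 members whose groups did not overlap, with mean and SD (n = 3). The gap between the groups is narrow for Ndufa2 (6.18 against 6.53 FPKM) and for Atp5l (6.47 against 6.36 FPKM), and none of the 9 passed the test across all genes.

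Complex II, succinate dehydrogenase, is the one complex encoded wholly in the nucleus, and also an enzyme of the tricarboxylic acid cycle. It had 1 higher and 3 lower genes, or 2 higher and 2 lower with centred libraries, and its median log2 fold change of -0.52 was 0.08 below all genes. Sdhd, a membrane anchor subunit, was at 20.1, 13.2 and 32.6 FPKM in control and 5.69, 18.5 and 3.69 FPKM in OGD/R. OGD/R libraries 1 and 3 lay below all control libraries and OGD/R library 2 within them, with a log2 fold change of -1.35 ± 0.62 (limma adjusted p = 0.720). Sdhb, the iron-sulfur subunit, was at 16.3, 32.2 and 41.8 FPKM in control and 8.72, 43.8 and 9.83 FPKM in OGD/R, with OGD/R libraries 1 and 3 below and OGD/R library 2 above all control libraries. Sdha, the flavoprotein that oxidises succinate, was at 29.0, 9.27 and 16.2 FPKM in control and 12.4, 17.4 and 23.8 FPKM in OGD/R, with overlapping groups and a log2 fold change of 0.07. Sdhc, the other anchor subunit, ranged from 6.21 to 14.98 FPKM, and its log2 fold change of -0.25 turned to 0.20 with centred libraries.

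Complex III had 2 higher and 6 lower genes, with a median of -0.40, or 5 higher and 3 lower with a median of 0.05 where libraries were centred. Uqcrc1, a core subunit, was at 16.7, 12.3 and 21.4 FPKM in control and 8.12, 18.2 and 7.96 FPKM in OGD/R, with a log2 fold change of -0.58 ± 0.47 (limma adjusted p = 0.798). Its partner Uqcrc2 had a lower level, at 4.83, 10.1 and 6.71 FPKM in control and 6.65, 10.2 and 5.59 FPKM in OGD/R. The groups overlapped for both. Uqcrfs1, the Rieske iron-sulfur protein that passes electrons to cytochrome c1, ranged from 1.03 to 7.39 FPKM, and its log2 fold change of -0.37 turned to 0.08 with centred libraries. Uqcrh, the acidic hinge protein, ranged from 10.4 to 27.6 FPKM, and its log2 fold change of -0.07 turned to 0.38. Uqcr10, a small membrane subunit, was at 8.97, 2.77 and 5.25 FPKM in control and 0.916, 12.2 and 0 FPKM in OGD/R, where the 0 allows up to 4.45 FPKM. Uqcrq was at 0.602 to 7.96 FPKM, with its highest value in OGD/R library 3.

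Complex IV, cytochrome c oxidase, had 8 higher and 10 lower genes with a median of -0.03, or 12 higher and 6 lower with a median of 0.42 where libraries were centred. It holds both the largest positive and the largest negative log2 fold change among the 92 tested members, Cox7a1 and Cox4i2. Cox7c, a small subunit of the membrane part, had the highest mean of all members, at 40.01, 116 and 60.4 FPKM in control and 21.1, 41.0 and 29.9 FPKM in OGD/R. OGD/R library 2 and control library 1 were about level, and the log2 fold change was -1.12 ± 0.49 (limma adjusted p = 0.720). Cox7c has 5 near-identical copies. Cox5a and Cox5b, which bind the matrix face of the complex, were low, at 1.56 to 6.04 FPKM and 1.62 to 9.60 FPKM, with overlapping groups. The log2 fold change of Cox5a was -0.05 and turned to 0.41 with centred libraries, while that of Cox5b was 0.47 ± 0.76. Cox7b was at 32.0, 18.4 and 22.7 FPKM in control and 9.33, 29.0 and 6.05 FPKM in OGD/R. As with Sdhd, OGD/R libraries 1 and 3 lay below all control libraries and OGD/R library 2 within them.

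No paired form passed the test, and differences between partners were not tested. Cox6a1, the widely used form of subunit VIa, was at 16.2, 38.8 and 24.8 FPKM in control, from 11, 34 and 23 reads, and at 12.8, 4.46 and 6.11 FPKM in OGD/R, from 17, 4 and 5 reads. The groups did not overlap, and its log2 fold change of -1.68 ± 0.52 (limma adjusted p = 0.637) was -1.24 relative to all genes. Cox6a1 has 1 near-identical copy. Its partner Cox6a2, the form of heart and skeletal muscle, was at 0, 2.08 and 5.90 FPKM in control and 0.687, 2.03 and 0 FPKM in OGD/R, below Cox6a1 in 6 of 6 libraries. In subunit VIIa, too, the form of few tissues lay below its partner. Cox7a1, the form of heart and skeletal muscle, was at 0, 2.92 and 1.38 FPKM in control, from 0, 2 and 1 reads, and at 16.4, 9.98 and 7.80 FPKM in OGD/R, from 17, 7 and 5 reads. Every OGD/R library lay above every control library, and the 0 in control library 1 allows up to 5.66 FPKM. Its log2 fold change was 2.5 ± 0.67 (limma adjusted p = 0.583), and 2.94 relative to all genes. The widely used Cox7a2 was at 26.4, 22.5 and 11.2 FPKM in control and 42.5, 11.5 and 8.04 FPKM in OGD/R, above Cox7a1 in 6 of 6 libraries. Its groups overlapped, and its log2 fold change of -0.22 turned to 0.23 with centred libraries. In OGD/R library 3 the paired forms were nearly level, at 7.80 and 8.04 FPKM. Of 13 other genes known from heart and skeletal muscle, 1 had a higher and 12 a lower value in OGD/R (7 higher and 6 lower with centred libraries), none was at 0 in a library, and their summed FPKM was 157 to 169 in control and 105 to 155 in OGD/R. Their part in the values of Cox7a1 was not tested.

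Cox4i2, the form of subunit IV known from lung and responsive to oxygen, was at 19.98, 19.3 and 16.4 FPKM in control and 1.27, 23.6 and 2.07 FPKM in OGD/R. OGD/R library 2 stood above all control libraries and the other OGD/R libraries far below them, and the log2 fold change was -1.81 ± 0.84 (limma adjusted p = 0.720). The widely used Cox4i1 was at 19.1, 19.4 and 31.5 FPKM in control and 22.0, 36.2 and 29.7 FPKM in OGD/R, with overlapping groups and a log2 fold change of 0.32. In control libraries 1 and 2 the pair was about level, and Cox4i2 exceeded Cox4i1 in control library 1 alone. Ndufa4l2, a paralog of Ndufa4 known as a target of hypoxia-inducible factor, was at 6.44, 6.41 and 7.40 FPKM in control and 0, 9.74 and 3.81 FPKM in OGD/R. It lay below Ndufa4 in 6 of 6 libraries. Cox6b2, the testis form of subunit VIb, was at 4.69, 3.63 and 3.43 FPKM in control and 2.39, 4.73 and 11.6 FPKM in OGD/R. It exceeded the widely used Cox6b1 by listed FPKM in 6 of 6 libraries. Cox6b1 was at 4.44, 0 and 2.17 FPKM in control and 0, 3.36 and 1.23 FPKM in OGD/R. Cox6b2 had 3, 3 and 3 reads in control and 3, 4 and 9 in OGD/R, and Cox6b1 had 3, 0 and 2 and 0, 3 and 1. The counts of 0 for Cox6b1 allow up to 3.43 FPKM in control library 2 and 2.27 FPKM in OGD/R library 1. With so few reads the order of this pair is uncertain. The log2 fold change of Cox6b1 was -0.28 and turned to 0.17 with centred libraries. Cox7b2, another form known from testis, ranged from 5.07 to 19.1 FPKM and lay below Cox7b in 6 of 6 libraries. Cox8b, the muscle form of subunit VIII, was at 0, 3.93 and 3.72 FPKM in control and 22.0, 7.69 and 0 FPKM in OGD/R, and the testis form Cox8c at 0, 12.4 and 0 FPKM and 0, 12.1 and 0 FPKM. For transcripts as short as that of Cox8b, at 360 nucleotides, a count of 0 allows up to 6.31 to 7.63 FPKM. The widely used Cox8a was at 1.68, 7.79 and 2.46 FPKM in control and 1.71, 8.88 and 8.33 FPKM in OGD/R, and Cox8b and Cox8c each exceeded it in 2 of 6 libraries. Markers of male germ cells (8 genes) summed to 75.1 to 97.8 FPKM in control and 35.8 to 74.8 FPKM in OGD/R, with Prm1 and Tnp1 at 0 in 1 library each and Tnp2 in 2. Their part in the values of the testis forms was not tested.

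**Figure D4:**
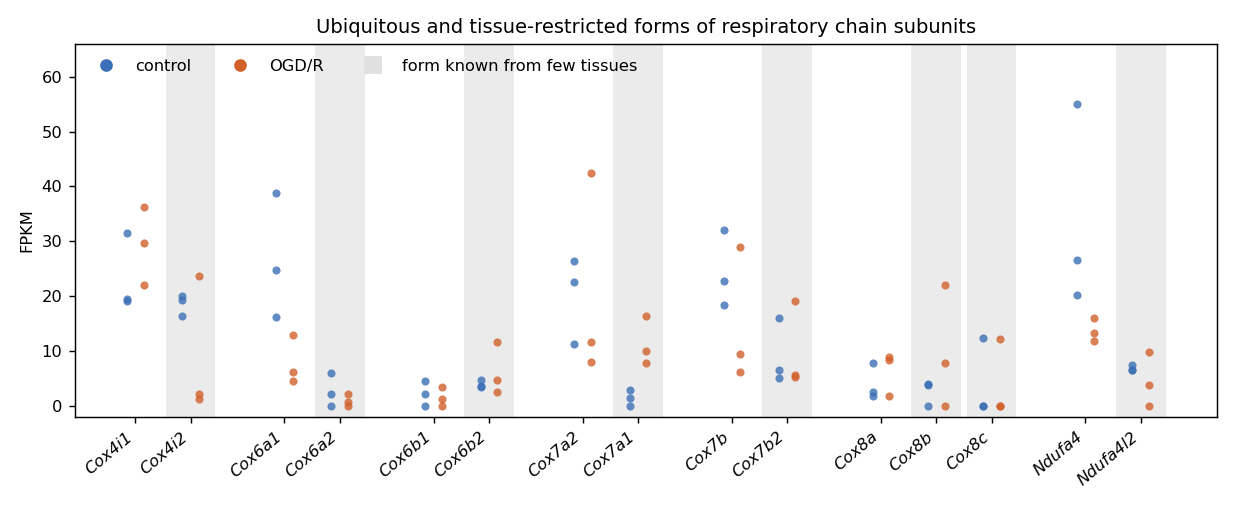
FPKM of widely used forms (white) and forms known from few tissues (grey bands) of respiratory chain subunits in control (blue) and OGD/R (orange) libraries. Cox6a2, Cox7a1, Cox7b2 and Ndufa4l2 lie below their partners in 6 of 6 libraries. Cox6b2 lies above Cox6b1 in 6 of 6, but from 3 to 9 reads against 0 to 3, so their order is uncertain.

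Taking the paired forms as groups, the 7 widely used forms had a median of 19.1, 19.4 and 22.7 FPKM in control and 12.8, 11.5 and 8.0 FPKM in OGD/R. The 8 forms known from few tissues had 2.3, 5.2 and 4.8 FPKM in control and 1.8, 9.9 and 2.9 FPKM in OGD/R. The medians of the widely used forms did not overlap between the groups, at 20.4 ± 2.0 FPKM against 10.8 ± 2.5 FPKM (SD, n = 3). Relative to the median of coding genes in the same library they did overlap, at 1.38, 1.31 and 1.37 on the log2(FPKM + 1) scale in control and 1.61, 0.44 and 0.58 in OGD/R. Their log2 fold changes had a median of -0.28, which is 0.16 above all tested genes, and 5 of 7 were negative. With centred libraries the median turned to 0.17 and 3 of 7 were negative. Those of the restricted forms had a median of 0.01, which is 0.45 above all tested genes, with 4 of 8 negative. With centred libraries their median was 0.46 and 5 of 8 were positive.

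Complex V had 6 higher and 11 lower genes with a median of -0.26, or 11 higher and 6 lower with a median of 0.19 where libraries were centred. The 5 subunits of F1, the part that makes ATP, were 1 higher and 4 lower with a median of -0.65, which is 0.21 below all genes. Atp5d, the delta subunit of the central stalk, was at 16.2, 15.1 and 11.4 FPKM in control and 0.993, 9.81 and 5.91 FPKM in OGD/R. Its groups did not overlap, and the log2 fold change was -1.51 ± 0.66 (limma adjusted p = 0.720), or -1.07 relative to all genes. The catalytic beta subunit Atp5b was at 4.78, 8.86 and 14.7 FPKM in control and 5.85, 22.4 and 8.69 FPKM in OGD/R. The alpha subunit Atp5a1 was at 7.53, 10.8 and 15.8 FPKM in control and 11.2, 11.9 and 8.78 FPKM in OGD/R, and its log2 fold change of -0.05 turned to 0.40 with centred libraries. The groups overlapped for both, as they did for the gamma subunit Atp5c1, at 17.4, 11.8 and 16.2 FPKM in control and 6.73, 7.58 and 14.8 FPKM in OGD/R. The c-ring, which turns as protons pass, is built from 1 protein encoded by 3 genes. Atp5g2 was at 6.08, 3.76 and 4.44 FPKM in control and 17.4, 8.27 and 7.04 FPKM in OGD/R, each OGD/R library above each control library. Its log2 fold change was 0.97 ± 0.51 (limma adjusted p = 0.733). It has 2 near-identical copies and overlaps Mir688 on the same strand. Atp5g1 was at 1.94 to 9.15 FPKM and Atp5g3 at 10.3 to 19.4 FPKM, both with overlapping groups, and their log2 fold changes of -0.13 and -0.27 turned to 0.32 and 0.18 with centred libraries. The summed FPKM of the 3 c-ring genes was 27.1 to 29.0 in control and 26.1 to 33.6 in OGD/R. Among stalk, membrane and regulatory subunits, Atp5j was at 40.5, 29.8 and 35.4 FPKM in control and 29.7, 49.99 and 53.9 FPKM in OGD/R, and Atp5h, with 5 near-identical copies, at 36.3, 23.1 and 18.7 FPKM and 22.3, 35.5 and 35.3 FPKM. Both belong to the peripheral stalk that holds F1 in place, and both had overlapping groups. Atp5o, the stalk subunit that binds the top of F1, was at 3.93 to 22.3 FPKM. Atp5mpl was at 17.9, 18.5 and 12.03 FPKM in control and 6.87, 21.5 and 1.24 FPKM in OGD/R, with OGD/R library 2 above the control libraries and the other OGD/R libraries below them. Atp5l, with 14 near-identical copies, was at 8.27, 6.62 and 6.47 FPKM in control and 3.77, 6.36 and 4.32 FPKM in OGD/R.

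The share of fragments on members gave one picture with Gm23935 counted and another without it. On the 84 members with whole reads fell 0.144, 0.131 and 0.145% of the fragments in control and 0.0913, 0.151 and 0.118% in OGD/R. The lowest, in OGD/R library 1, has a 95% Wilson interval of 0.0873 to 0.0954% and that of OGD/R library 2 one of 0.145 to 0.158%, so the OGD/R libraries differed from each other by more than the counting error, the only error these intervals cover. Means were 0.140 ± 0.00798% in control and 0.120 ± 0.0300% in OGD/R (SD, n = 3), a difference smaller than the spread of the OGD/R libraries. Of the fragments outside Gm23935, the members took 0.1503, 0.131 and 0.145% in control and 0.181, 0.154 and 0.157% in OGD/R, with means of 0.142 ± 0.00985 and 0.164 ± 0.0147%. With that denominator the direction turned and the groups no longer overlapped. The gap lay between 0.1503% in control library 1 and 0.154% in OGD/R library 2. It was narrower than the Wilson interval of control library 1 over all fragments, 0.137 to 0.151%. Within a library, leaving out Gm23935 raises the share of all remaining genes by the same factor. No share of other genes was set beside that of the members.

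**Figure D5:**
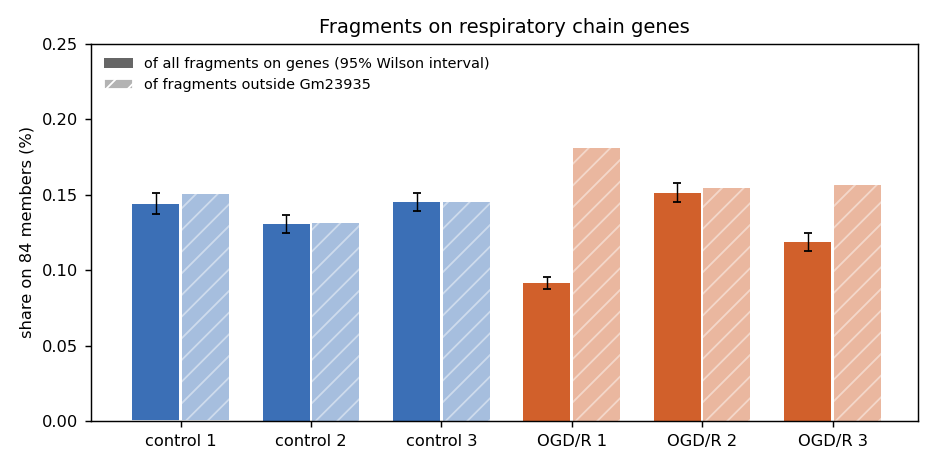
Share of fragments on 84 members in each library, of all fragments on genes (solid, with 95% Wilson interval) and of fragments outside Gm23935 (hatched); control in blue, OGD/R in orange. The solid bar is lowest in OGD/R library 1 (0.0913%) and the hatched bar is highest there (0.181%).

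The order of members varied between libraries. Atp5j and Cox7c were among the 10 highest members in 6 of 6 libraries, Atp5h in 5, and Cox4i1, Ndufa10 and Ndufaf5 in 4. Spearman's rho between libraries over the 93 members was 0.437 to 0.728 with a median of 0.539 for 15 pairs, and over all protein-coding genes 0.684 to 0.855 with a median of 0.731. All these pairs share gene lengths and sequence, and a gene of few reads moves in rank by counting alone. The median coding gene had 21, 29 and 35 reads in control and 22, 34 and 19 in OGD/R, more than the median member in each library. Mean levels spanned 0 to 19576 FPKM for coding genes and 0.27 to 51.4 FPKM for members, so the values of rho come from unlike sets. OGD/R library 1 held the lowest value of 29 members and OGD/R library 2 the highest of 22. The median of all protein-coding genes was likewise lowest in OGD/R library 1, at 3.53 FPKM. It was highest in OGD/R library 2, at 8.22 FPKM, about level with control library 3 at 8.21 FPKM. At 0 were 10, 3 and 1 members in the control libraries and 7, 1 and 10 in the OGD/R libraries. Of 21865 protein-coding genes, 1973, 1171 and 1045 were at 0 in control and 2508, 1316 and 2151 in OGD/R. A split by transcript length, chosen after the values were seen, gave 21 higher and 22 lower among 43 tested members under 1000 nucleotides and 13 higher and 36 lower among 49 longer ones, or 30 and 28 higher with centred libraries. Of tested coding genes, 29.8% of 1728 under that length and 18.6% of 18628 longer ones were higher, or 48.7 and 52.7% with centred libraries.

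The known control of these genes through their promoters led to a search of the RefSeq promoters of GRCm38.p6, which run from 250 bases before to 50 bases after the start of a gene and matched 74 of 93 members. The core bound by NRF1, a factor known to drive many respiratory genes, reads GCGCA and GCGC with any 1 base between them. It was found on either strand in 19 members (25.7%), where 5.19% of 27025 genes and 7.17% of 17492 coding genes hold it. AAGATGGCG, the core bound by YY1, was found in 8 (10.8%) against 1.64% of genes and 2.14% of coding genes. CCGGAAGT, the core bound by GABPA, was found in 5 (6.76%) against 4.31% and 5.69%. At least one of these was found in 30 members (40.5%), against 10.3% of genes and 13.9% of coding genes. The NRF1 letters were in 9 of 40 matched members of complex I, 2 of 3 of complex II, 1 of 5 of complex III, 1 of 13 of complex IV and 6 of 13 of complex V. The 19 members with them had a median log2 fold change of 0.22, 11 of them positive, and the 54 tested members without them -0.32, 15 of them positive. With centred libraries these medians were 0.67 and 0.13, with 14 and 31 positive, so the direction of the second turned. Of tested coding genes matched by symbol, 19.9% of 1218 with the letters and 18.9% of 14409 without them were positive, or 55.2 and 51.9% with centred libraries. The YY1 split went the same way, with medians of 0.18 (8 members, 5 positive) and -0.27 (65 members, 21 positive). Of coding genes, 16.5% with and 19.1% without the YY1 letters were positive. With centred libraries the YY1 medians were 0.63 and 0.18. For GABPA the medians were -0.07 (5 members, 2 positive) and -0.22 (68 members, 24 positive). Median levels were 11.7 FPKM for the 19 members with the NRF1 letters and 8.2 FPKM for the 54 without. These are descriptions of letters in a window, with no test, and a missing match says nothing of a factor's binding.

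The 250 bases before the RefSeq start are shown for Cox7a1, the member of smallest p, with its partner Cox7a2, and for Cox6a1 and Sdhd, whose letters include the NRF1 core and which were chosen after their values were seen. They run 5′ to 3′ on the strand of the gene in GRCm38.p6, from RefSeq, with matches to the NRF1 core in capitals. Cox7a1 is read from chr7:30183921-30184170 on the plus strand, Cox7a2 from chr9:79759854-79760103, Cox6a1 from chr5:115348959-115349208 and Sdhd from chr9:50603850-50604099, the last 3 on the minus strand. In GENCODE M21 the genes span chr7:30184144-30186078 (Cox7a1), chr9:79755361-79759878 (Cox7a2), chr5:115345642-115348981 (Cox6a1) and chr9:50596357-50603812 (Sdhd). The annotations differ on the starts: the stretches of Cox7a1, Cox7a2 and Cox6a1 reach into the GENCODE gene, and that of Sdhd ends before it.
Cox7a1: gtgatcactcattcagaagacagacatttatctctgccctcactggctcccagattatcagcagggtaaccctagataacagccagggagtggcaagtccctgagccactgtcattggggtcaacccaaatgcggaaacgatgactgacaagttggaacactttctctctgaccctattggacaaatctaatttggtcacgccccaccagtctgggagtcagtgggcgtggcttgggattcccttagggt
Cox7a2: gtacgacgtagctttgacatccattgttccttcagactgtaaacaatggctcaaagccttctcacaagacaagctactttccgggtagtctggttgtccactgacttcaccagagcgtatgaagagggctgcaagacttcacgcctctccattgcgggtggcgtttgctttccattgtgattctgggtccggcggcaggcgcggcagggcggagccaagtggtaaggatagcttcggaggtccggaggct
Cox6a1: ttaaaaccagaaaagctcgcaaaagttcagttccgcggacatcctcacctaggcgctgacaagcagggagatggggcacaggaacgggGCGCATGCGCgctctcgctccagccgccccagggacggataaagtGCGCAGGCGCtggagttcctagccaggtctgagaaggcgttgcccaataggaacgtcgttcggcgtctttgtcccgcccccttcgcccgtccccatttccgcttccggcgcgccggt
Sdhd: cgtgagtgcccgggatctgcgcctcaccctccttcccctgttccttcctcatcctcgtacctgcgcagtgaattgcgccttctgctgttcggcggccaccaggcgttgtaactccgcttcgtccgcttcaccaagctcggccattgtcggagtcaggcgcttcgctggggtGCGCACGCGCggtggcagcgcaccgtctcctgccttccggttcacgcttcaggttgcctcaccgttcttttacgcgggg
Cox6a1 holds the core at 2 places and Sdhd at 1, while neither Cox7a1 nor Cox7a2 holds any of the 3 cores. Both Cox6a1 and Sdhd had negative log2 fold changes, -1.68 and -1.35, although members with the core had a median of 0.22.

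Other genes of the pathway were read from lists, and none passed limma's test after adjustment. Of 37 tested assembly factors outside the symbol rule, 9 were higher and 28 lower, with a median log2 fold change of -0.48, which is 0.04 below all tested genes. With centred libraries 18 were higher and the median was -0.03. The 2 of smallest p were Uqcc2, a factor of complex III assembly, at 32.4, 110 and 78.4 FPKM in control and 10.8, 28.8 and 12.8 FPKM in OGD/R (limma adjusted p = 0.608), and Cox20, a factor of complex IV, at 23.2, 3.17 and 5.99 FPKM and 0, 1.03 and 3.39 FPKM. Only for Uqcc2 of these were all OGD/R libraries below all control libraries. The list of cytochrome c, cytochrome c1 and the enzyme that attaches their heme had 1 higher and 3 lower genes with a median of -0.28 that turned to 0.17 with centred libraries. Cyc1, the cytochrome c1 of complex III that lies outside the symbol rule, was at 0.766, 10.7 and 6.72 FPKM in control and 3.52, 13.9 and 0 FPKM in OGD/R, and Hccs, the heme lyase, at 4.98, 19.5 and 20.01 FPKM and 6.21, 10.4 and 2.97 FPKM. Enzymes of the tricarboxylic acid cycle had 2 higher and 11 lower of 13 with a median of -0.27 that turned to 0.18. Its 2 of smallest p were Sucla2, a subunit of succinyl-CoA synthetase, at 27.9, 17.1 and 24.3 FPKM and 7.96, 15.5 and 13.2 FPKM, and Fh1, fumarase, at 27.4, 9.39 and 9.14 FPKM and 6.91, 6.04 and 7.47 FPKM. Both had OGD/R values below all control values. Regulators of respiratory gene and mitochondrial DNA transcription had 1 higher and 10 lower of 11 with a median of -0.37 that turned to 0.08. Nrf1, whose protein binds the core searched above, was at 24.9, 36.1 and 24.5 FPKM and 10.5, 30.8 and 12.5 FPKM, and Tfb2m, a mitochondrial transcription factor, at 11.6, 6.36 and 8.74 FPKM and 0.953, 11.02 and 3.71 FPKM, both with overlapping groups. Of 13 mRNAs of the mitochondrial genome, 6 had at most 3 reads in any library and were not tested, and the other 7 were higher, with a median of 1.22. The 2 of smallest p were mt-Nd6 and mt-Nd5, subunits of complex I, with log2 fold changes of 3.54 ± 1.22 and 1.67 ± 0.63 (limma adjusted p = 0.705 and 0.720). For mt-Nd5 the lowest OGD/R library, at 17.7 FPKM, was close to the highest control library, at 17.1 FPKM. For mt-Nd6, control library 1, at 1234 FPKM, was about level with OGD/R library 2, at 1269 FPKM, and the other control libraries were at 62.7 and 132 FPKM. These are 46 to 3241 reads per library, while mt-Nd3, mt-Nd4l, mt-Co3 and mt-Atp8 had 0 reads in every library. The strand of the reads was not tested, so those on mt-Nd6 cannot be assigned to its mRNA.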

How the data were processed

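RNA of sEV from 3 control and 3 OGD/R samples was sequenced. The authors deposited FPKM values, 1 table per library, whose names mention HTSeq. Per the labels' protocols, Trizol was used to extract RNA and a long-RNA kit from Epibiotek to prepare libraries. No aligner, build or annotation is given in the sources used here.

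Reads were recovered from FPKM with the longest GENCODE M21 transcript of each gene. Of the values above 0, 95.7 to 96.1% were whole reads within 0.01, and 51485 genes (96.6%) were whole in all libraries. One read on 1 kilobase was worth 0.467 to 0.915 FPKM. FPKM divides by a total in which Gm23935 varies, and a longest transcript, up to 6310 nucleotides in Atp5l, understates a gene read from a shorter one.

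Values were taken as log2(FPKM + 1) where the mean reached 1 FPKM. A two-sided limma 3.58.1 test without covariates followed (R 4.3.3, trended eBayes), with Benjamini-Hochberg adjustment over all 44125 genes and 0.05 as the threshold. Fold changes on this scale understate low genes. All members and lists were chosen with earlier results of these data known. Named were members past the threshold, in each complex the 2 of smallest p per direction and the 2 of highest mean, core subunits, paired forms and the 2 of smallest p of each other pathway list. A gene that this rule takes is not reported here. Ndufb8, Ndufb9, Atp5l and Ndufa1 were named after their values were seen. Near-identical copies (90% identity over 80% of the coding sequence) were searched with blastn 2.17.0 among the transcripts of GENCODE M21 alone, not in the genome. They were found for 32 members and same-strand exon overlaps (bedtools 2.31.1) for 5, which leaves 59 with neither. Exon overlaps on the opposite strand, which that count does not consider, were found for 29 members. Among them were Atp5j, Cox4i1, Ndufs1, Atp5d and Ndufa2, and the strand of the reads was not tested. Of the steps, the main limma fit alone was tested on simulated data, which held no shift of all genes between libraries. Tables were handled in Python 3.11.15 (numpy 2.4.6, pandas 2.3.3, scipy 1.17.1) and drawn with matplotlib 3.10.9. The alternatives tried were another pseudocount, filter and scaling, limma without a trend, array weights, limma-voom on reads, a replicate block and leaving out each library.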

Additional observations from a re-analysis of the deposited data

How the results depend on the processing

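The count of members past the threshold was 0 in each of 15 alternatives. Over all genes, 7 passed, against 0 with a pseudocount of 0.1, without a filter on low values, with centred libraries and without a trend, 75 with array weights, 235 with limma-voom on all reads and 47 with limma-voom on totals over coding genes. Leaving out 1 library gave 0 to 71 genes, with 71 without OGD/R library 2, 2 without control library 1 or OGD/R library 1 and 0 without any of the other 3. The members' median of -0.17 moved to 0.28 with centred libraries and 0.26 with coding totals, and ranged from -0.44 to -0.02 when 1 library was left out. Its distance from all genes was positive in every setting, from 0.12 to 0.39. By complex, the distance stayed positive for complexes I, IV and V, with lowest values of 0.08, 0.04 and 0.06. For complex III it was 0.04, but -0.06 without a filter on low values and -0.27 without control library 2. For complex II it ranged from -0.49 with array weights to 0.12 without control library 3. Left-out libraries moved Cox7a1 between 1.96 and 2.95, Cox6a1 between -2.06 and -1.38 and Cox4i2 between -2.89 (without OGD/R library 2) and -1.17 (without OGD/R library 1). A replicate block gave 0 of all genes and 0 members. Deviations of libraries with the same number correlated at 0.0446, 0.102 and -0.0582, so the numbers were not taken to pair the libraries. Among named members the direction turned as follows, and the cause was not tested. With array weights: Ndufa10 0.24, Uqcrc2 -0.22, Cox7b2 -0.58, Cox8b -0.80, Atp5b -0.19 and Atp5o -0.079. With centred libraries: Ndufa10 0.084, Sdhc 0.20, Uqcrfs1 0.078, Uqcrh 0.38, Cox5a 0.41, Cox6b1 0.17, Cox7a2 0.23, Cox8c 0.44, Atp5a1 0.40, Atp5g1 0.32 and Atp5g3 0.18. With limma-voom on all reads: Cox5a 0.033 and Cox7b2 -0.16. With coding totals: Ndufa10 0.13, Sdhc 0.18, Uqcrfs1 0.043, Uqcrh 0.34, Cox5a 0.45, Cox7a2 0.26, Cox8c 0.17, Atp5a1 0.39, Atp5g1 0.31 and Atp5g3 0.21. When 1 library was left out, the range was -0.20 to 0.80 for Ndufv2, -0.16 to 0.30 for Uqcrc2, -0.53 to 0.20 for Cox5a, -0.96 to 0.27 for Cox6b1, -0.90 to 0.23 for Cox7a2, -0.53 to 0.47 for Cox7b2, -0.24 to 0.64 for Atp5b, -0.034 to 0.82 for Atp5o, -0.31 to 0.46 for Sdha, -1.25 to 1.24 for Cox8c, -0.61 to 0.29 for Atp5g1, -0.49 to 0.020 for Sdhc, -0.39 to 0.32 for Uqcrh, -0.29 to 0.20 for Atp5a1, -0.76 to 0.25 for Uqcrfs1, -0.016 to 0.34 for Ndufs1, -0.90 to 0.15 for Ndufs3 and -0.15 to 0.80 for Cox6b2. With a median of 11 to 19.5 reads per member in a library, differences of single members are limited by depth.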
